A study of Mus musculus with 6 samples.

Results

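The carboxylesterase genes of mouse liver were followed in 3 liver samples of knockout mice and 3 of control mice. The set held 10 genes fixed by symbol, namely Ces1b, Ces1c, Ces1d, Ces1e, Ces1f, Ces1g, Ces2a, Ces2c, Ces3a and Ces3b, out of 22180 genes tested. A gene entered when a probe set of the array carried its symbol and no other, which held for 9 of the 10. Ces2c had no such probe set in the array annotation used here and was not analysed. Each of the 9 genes had a single probe set, so no choice between probe sets was needed.

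All mice were male, 2 months old and of the C57BL/6N background. The knockout mice lacked cGMP-dependent protein kinase 1 (cGK1, the product of Prkg1), and the series design adds that the kinase was restored in their smooth muscle. The control mice were labelled wild type. The labels name neither the promoter that drove the rescue nor the deleted exon, and they do not say whether each sample was a separate animal, so every p-value reflects the spread among the samples alone, part of which may be technical. The comparison asks how liver transcripts differ between mice with and without the kinase outside smooth muscle.

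Carboxylesterases are serine hydrolases that cleave ester, thioester and amide bonds. Most of them stay in the lumen of the endoplasmic reticulum of hepatocytes, held there by a retrieval signal at the end of the protein, where they hydrolyse drugs, pesticides and ester prodrugs as well as stored triacylglycerol and cholesteryl esters. In the mouse they are encoded by a family of close relatives made by tandem duplication, whose members are counted in subfamilies by sequence. In the RefSeq table of the assembly GRCm38.p6, 20 carboxylesterase genes lie on chromosome 8. The order begins with Ces1a to Ces1h and Ces5a, and continues with the Ces2 genes, Ces3a, Ces3b and Ces4a.

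The sequences in front of 5 of these genes are shown because they belong to the gene with the largest positive difference (Ces1g), the gene with the largest negative difference (Ces3b), a further gene with a negative difference (Ces1e), and a pair of neighbours with nearly the same sequence whose differences were small (Ces1b and Ces1c). Each line gives the 250 bases before the RefSeq transcription start, 5′ to 3′ on the strand of the gene, from the build GRCm38.p6. Capitals mark TTATGTAA, the D-box element that DBP, TEF, HLF and NFIL3 are known to bind, and TATAAA, the TATA box, on either strand. The Ces1g stretch is chr8:93337210-93337459 (minus strand), that of Ces1e chr8:93229620-93229869 (minus strand), that of Ces1c chr8:93131284-93131533 (minus strand), that of Ces1b chr8:93079941-93080190 (minus strand) and that of Ces3b chr8:105083505-105083754 (plus strand).
Ces1g: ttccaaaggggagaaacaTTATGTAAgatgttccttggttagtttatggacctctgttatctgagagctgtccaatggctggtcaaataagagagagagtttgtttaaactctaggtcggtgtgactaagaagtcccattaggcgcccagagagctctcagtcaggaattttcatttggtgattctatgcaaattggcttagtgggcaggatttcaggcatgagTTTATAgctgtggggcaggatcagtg
Ces1e: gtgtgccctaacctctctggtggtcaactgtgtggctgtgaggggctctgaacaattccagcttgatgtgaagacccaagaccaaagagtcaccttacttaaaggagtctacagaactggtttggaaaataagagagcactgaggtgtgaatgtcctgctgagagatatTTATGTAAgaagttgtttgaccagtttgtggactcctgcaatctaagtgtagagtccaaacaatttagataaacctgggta
Ces1c: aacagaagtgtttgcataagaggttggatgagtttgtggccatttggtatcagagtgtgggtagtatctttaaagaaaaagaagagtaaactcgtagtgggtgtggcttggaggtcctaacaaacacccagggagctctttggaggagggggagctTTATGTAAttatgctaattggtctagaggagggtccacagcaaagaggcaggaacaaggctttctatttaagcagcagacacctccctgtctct
Ces1b: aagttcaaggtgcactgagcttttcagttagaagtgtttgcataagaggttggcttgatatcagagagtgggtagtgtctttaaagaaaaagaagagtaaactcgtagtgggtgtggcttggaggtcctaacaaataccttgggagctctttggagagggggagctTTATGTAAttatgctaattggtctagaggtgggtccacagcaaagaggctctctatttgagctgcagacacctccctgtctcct
Ces3b: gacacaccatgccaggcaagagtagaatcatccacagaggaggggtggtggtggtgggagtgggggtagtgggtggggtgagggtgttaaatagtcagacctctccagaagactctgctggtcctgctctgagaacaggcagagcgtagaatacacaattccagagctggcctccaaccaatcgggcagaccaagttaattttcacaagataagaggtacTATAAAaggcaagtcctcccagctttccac

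Promoter sequences were held by the RefSeq table for 7 of the 10 genes, Ces2a and Ces2c included, and not for Ces1d, Ces1f and Ces3a. The search covered 250 bases before and 50 after the start on both strands, and no match of a motif overlapped a match of another motif in these genes (0 overlaps). TTATGTAA was found in 4 of the 7 genes, against 0.938% of the 32851 promoters in the table. A gene was counted once if any of its starts had a match, whereas the share is over single promoters. Its first base lay at -232 in Ces1g, -81 in Ces1e, -94 in Ces1c and -84 in Ces1b, counted back from the start. Ces1b has a further start in the table, from which the same element lay at -7. The Ces1b sequence shown belongs to the start with -84. Of the 8 other carboxylesterase genes with a promoter in the table, 1 held it, Ces1a at -198. The 5 genes with a match are related by duplication and are not independent. TATAAA lay at -26 in Ces1g on the opposite strand and at -30 in Ces3b, so 2 of 7 genes held it against 13.6% of all promoters. CCAAT was found in 6 of 7 genes against 37.4%, and AGGTCA, a half-site of nuclear receptors, in 1 of 7, Ces2a, against 16.3%. TTCNNNGAA, the element of STAT factors, was found in 0 of 7 against 8.3%. When the 300-base windows were aligned end to end with free end gaps, Ces1b and Ces1c were identical at 254 of 273 aligned bases (93.0%). By number of identical bases the next pair of genes was Ces2a and Ces2c, at 206 of 277 (74.4%), and some pairs with shorter aligned stretches had higher percentages, up to 78.7%. These matches describe letters in a window and no binding was measured. The motifs were chosen after the values of the genes had been seen.

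Total RNA was measured on 1 Affymetrix whole-transcript array per sample, and values are log2 expression after RMA, with n = 3 per group throughout. RMA sets all arrays to a common distribution, and array medians lay between 3.11 and 3.16. The arrays of the control group correlated at 0.989 to 0.990 across genes and those of the knockout group at 0.978 to 0.983. Knockout replicate 3 correlated with the control arrays at 0.981 to 0.983 and with the other knockout arrays at 0.978 and 0.979. Knockout replicates 1 and 2 correlated with the controls at 0.978 to 0.981, so the separation was slight. Results are given with and without knockout replicate 3. It was singled out for lying nearer to the controls, so leaving it out favours larger differences. Prkg1 lay at 3.04 to 3.31 in the knockouts against 2.95 to 3.32 in the controls, below the median of gene means (3.55), and did not check the genotype labels. Of 11 matched hepatocyte markers 6 had positive and 5 negative differences, with albumin (Alb) at 13.31 to 13.44 on all 6 arrays. Adipose marker Adipoq lay at 1.68 to 1.98, kidney marker Umod at 2.45 to 2.58 and pancreatic marker Prss1 at 1.48 to 2.33, in the dim part of the table. Below the median of gene means lay 7 of 10 matched adipose, 8 of 11 kidney and 7 of 9 pancreatic markers. The others were brighter, among them Fabp4 at 5.42 to 6.89 in the knockouts against 4.76 to 5.21 in the controls. Ctrb1 lay at 4.59 to 4.83 and Slc22a12 at 3.81 to 4.46. Of the 12 macrophage markers all 12 had positive differences, with a median of 0.84, and their summed linear signal was 852 to 2078 in the knockout arrays and 641 to 696 in the controls. Their part in the results that follow was not tested. The whole liver was sampled, so fewer cells of a type and less RNA per cell cannot be told apart.

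Among the 9 measured carboxylesterase genes, Ces1g was higher in all 3 knockout arrays than in any control array, Ces3b was lower in all 3, and Ces1f and Ces1e had lower means. Ces1b, Ces1c, Ces1d, Ces2a and Ces3a differed by less than could be told from the spread. None of the 9 passed an adjusted p of 0.05 over all genes in limma, where 0 of 22180 genes (0%) passed. At an unadjusted p under 0.05 there were 4 of the 9, 1 higher and 3 lower, against 10.5% of all genes (5.06% higher and 5.46% lower). The knockout and control values did not overlap in 2 of the 9, 1 higher and 1 lower, against 16.7% of all genes (7.61% higher and 9.14% lower). The median difference of the 9 genes was -0.18, with 3 positive and 6 negative, against 0.00 over all genes. Counted as negative was Ces1b, whose group means were both 6.24 and whose sign was not fixed. All 9 lay above the median of gene means, and among such brighter genes 13.4% had an unadjusted p under 0.05 and 21.9% did not overlap. The members were chosen with earlier results of these data known. Near-identical genes can share probes on such an array or cross-hybridise, so the values of single Ces1, Ces2 and Ces3 genes are uncertain.

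**Figure D1:**
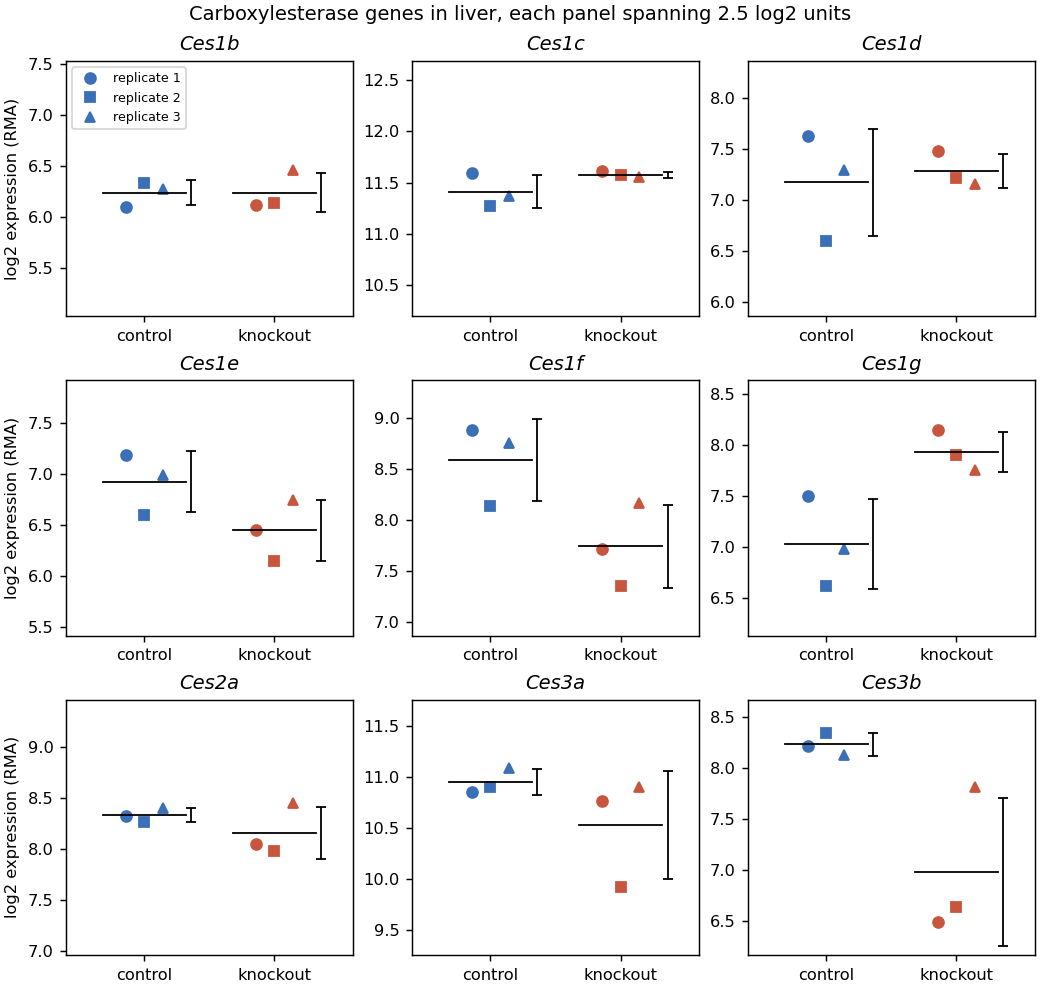
Log2 RMA expression of the 9 measured carboxylesterase genes in the control (blue) and knockout (red) arrays, 1 panel per gene and 1 point per array, with the marker shape giving the replicate number. Horizontal lines are group means and bars beside them are SDs (n = 3), and Ces1g and Ces3b are the 2 panels in which the groups do not overlap.

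Ces1g encodes a liver carboxylesterase that hydrolyses triacylglycerol and cholesteryl esters, and mice without it are known to have raised plasma lipids. Its log2 expression was 8.15, 7.90 and 7.76 in knockout replicates 1 to 3 against 7.50, 6.62 and 6.98 in control replicates 1 to 3. The lowest knockout array therefore lay above the highest control array, and the controls spread more (SD 0.44) than the knockouts (SD 0.20). The means were 7.94 and 7.03, a log2 difference of 0.91 (SE 0.22, 95% confidence interval 0.41 to 1.40), which is 1.87-fold higher in the knockout. Limma gave an adjusted p of 0.249 over all genes. Knockout replicate 3, which stood nearer to the controls over the whole array, still lay 0.73 above the control mean of Ces1g, against 1.12 and 0.87 for knockout replicates 1 and 2. Without it the difference was 0.99 (adjusted p = 0.180 in limma).

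Ces3b encodes a liver esterase of the third subfamily. Its log2 expression was 6.49, 6.64 and 7.82 in the knockouts against 8.22, 8.35 and 8.13 in the controls. The groups did not overlap, the controls were tight (SD 0.11) and the knockouts were spread (SD 0.73), with knockout replicate 3 close to the control range. The means were 6.98 and 8.23, a log2 difference of -1.25 (SE 0.30, 95% confidence interval -1.94 to -0.57), or 2.38-fold lower, with an adjusted p of 0.249 in limma. Knockout replicates 1 and 2 lay at -1.75 and -1.60 from the control mean and knockout replicate 3 at -0.42. Without knockout replicate 3 the difference was -1.67 (SE 0.15) and the adjusted p over all genes was 0.00569 in limma, past the threshold, in a comparison of 2 against 3 arrays. In that comparison 66 genes of the whole table passed. The array left out was singled out for lying nearer to the controls, so its removal favours larger differences and smaller p-values.

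Ces3a, the neighbour of Ces3b in the gene order and a member of the same subfamily, lay at 10.76, 9.92 and 10.90 in the knockouts against 10.85, 10.90 and 11.09 in the controls. Knockout replicate 2 stood clear below the control range, knockout replicate 1 just below it and knockout replicate 3 inside it. The log2 difference was -0.42 (SE 0.24, 95% confidence interval -0.96 to 0.12, limma adjusted p = 0.567), and it was -0.12 without knockout replicate 2 and -0.61 without knockout replicate 3 (adjusted p = 0.361). The array with the lowest Ces3a was thus not the array with the lowest Ces3b, and over the 6 arrays, which share their groups, the correlation between the neighbours was 0.69 as a description.

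Ces1f encodes a close relative of triacylglycerol hydrolase, and Ces1e encodes egasyn, the esterase that binds beta-glucuronidase and holds it in the endoplasmic reticulum. Ces1f lay at 7.71, 7.35 and 8.16 in the knockouts against 8.88, 8.13 and 8.75 in the controls. The groups touched, since knockout replicate 3 (8.16) lay just above control replicate 2 (8.13). The log2 difference was -0.85 (SE 0.25, 95% confidence interval -1.41 to -0.29), 1.80-fold lower, with an adjusted p of 0.317 in limma. It was -1.06 without knockout replicate 3, -0.65 without knockout replicate 2 and -1.08 without control replicate 2. Ces1e lay at 6.45, 6.15 and 6.75 in the knockouts against 7.19, 6.60 and 6.99 in the controls. Here too the groups overlapped through knockout replicate 3 and control replicate 2. The log2 difference was -0.48 (SE 0.20, 95% confidence interval -0.93 to -0.03, limma adjusted p = 0.439), and -0.63 without knockout replicate 3. It no longer reached an unadjusted p of 0.05 when knockout replicate 1, knockout replicate 2, control replicate 1 or control replicate 3 was left out, or with quantile normalization, with a largest p of 0.145. Gusb, the gene of beta-glucuronidase, differed by 0.11 (95% confidence interval -0.18 to 0.40, limma adjusted p = 0.797).

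Ces1d encodes triacylglycerol hydrolase, which mobilises stored triacylglycerol for very low density lipoprotein. It lay at 7.48, 7.22 and 7.16 in the knockouts against 7.63, 6.60 and 7.30 in the controls. All knockout values lay inside the control range, which spanned 1.03. The log2 difference was 0.11 (SE 0.24, 95% confidence interval -0.44 to 0.65, limma adjusted p = 0.906) and turned to -0.18 without control replicate 2, and it was 0.17 without knockout replicate 3. Differences of the size seen for Ces1g and Ces3b lie outside this interval, while a 1.5-fold difference in the upward direction does not.

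Ces1c encodes the carboxylesterase that the liver secretes into mouse plasma. It was bright and even, at 11.61, 11.57 and 11.55 in the knockouts against 11.59, 11.27 and 11.37 in the controls. Control replicate 1 lay among the knockout values and the other controls below them. The log2 difference was 0.17 (SE 0.13, 95% confidence interval -0.13 to 0.47, limma adjusted p = 0.687), and 0.19 without knockout replicate 3. Ces1b, whose promoter is nearly that of Ces1c, lay at 6.12, 6.14 and 6.46 in the knockouts against 6.10, 6.34 and 6.28 in the controls. The group means were both 6.24, the 95% confidence interval of the difference was -0.33 to 0.33, and its sign was not fixed (-0.11 without knockout replicate 3). Ces2a, a member of the subfamily that prefers substrates with a small acyl and a large alcohol group, lay at 8.05, 7.98 and 8.45 in the knockouts against 8.33, 8.27 and 8.41 in the controls. Knockout replicates 1 and 2 lay below all controls and knockout replicate 3 above them. The log2 difference was -0.18 (SE 0.15, 95% confidence interval -0.52 to 0.17, limma adjusted p = 0.721), and without knockout replicate 3 it was -0.32 (adjusted p = 0.403) and without knockout replicate 2 it was -0.08.

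**Figure D2:**
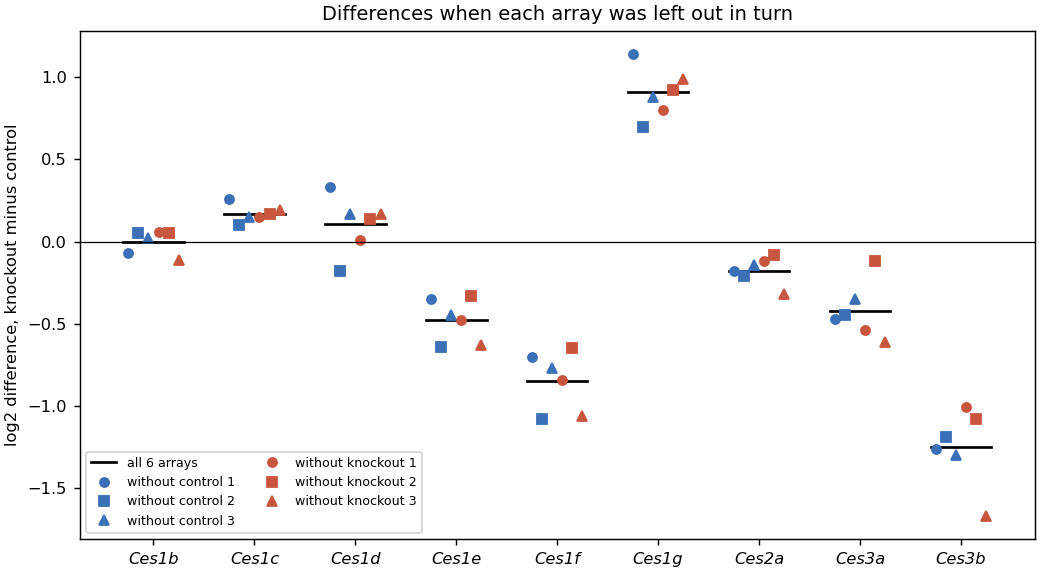
Log2 difference (knockout minus control) of each measured carboxylesterase gene with all 6 arrays (black lines) and with each array left out in turn (points, blue for a control array and red for a knockout array, shape for the replicate number). Ces1g stayed between 0.70 and 1.14 and Ces3b between -1.67 and -1.01, while Ces1b and Ces1d crossed 0.

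In the gene order Ces1e and Ces1f, both with negative differences, are followed by Ces1g, with a positive one. Within each array the Ces1g value minus the Ces1f value was 0.44, 0.55 and -0.39 in the knockouts and -1.39, -1.51 and -1.77 in the controls. These differences between probe sets carry no meaning as levels. Their shift between the groups was 1.75 log2 units, and the groups did not overlap. Ces1g minus Ces1e gave 1.70, 1.75 and 1.02 in the knockouts and 0.31, 0.02 and -0.01 in the controls, a shift of 1.38. For Ces3a minus Ces3b the knockouts lay at 4.27, 3.28 and 3.08 and the controls at 2.64, 2.55 and 2.95, a shift of 0.83. Ces1d minus Ces1e shifted by 0.58, and there the groups overlapped. Each shift follows from the differences of the single genes given above and is no separate result. These pairs were picked after the values had been seen and were not tested.

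**Figure D3:**
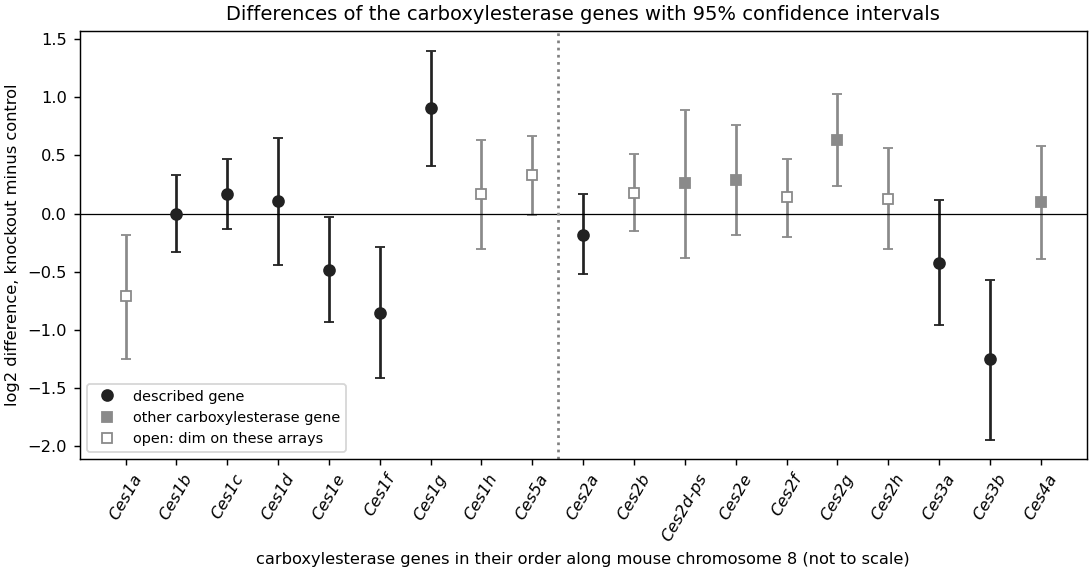
Log2 difference (knockout minus control, points) with the 95% confidence interval of limma (bars) for the 19 measured carboxylesterase genes in their order along chromosome 8, with black circles for the 9 described genes, grey squares for the others and open symbols for dim genes. The dotted line parts the stretch from Ces1a to Ces5a from that from Ces2a to Ces4a, and Ces1f and Ces1g stand side by side on opposite sides of 0.

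Within the groups the Ces1 genes fell into different orders of the arrays. In 5 of the 9 genes, Ces1c, Ces1d, Ces1e, Ces1f and Ces1g, control replicate 1 was the highest control and control replicate 2 the lowest, while in Ces1b control replicate 1 was the lowest and control replicate 2 the highest. Knockout replicate 3 was the highest knockout array in 6 of the 9 and the lowest in the other 3, Ces1c, Ces1d and Ces1g, in which knockout replicate 1 was the highest. Knockout replicate 2 was the lowest knockout array in 4, Ces1e, Ces1f, Ces2a and Ces3a. The median SD of the 9 genes was 0.252 in the knockouts and 0.161 in the controls, against 0.193 and 0.146 over all genes. After the group means were taken off, Ces1e and Ces1f correlated at 0.99 over the 6 arrays, Ces1c and Ces1g at 0.97, Ces1d and Ces1g at 0.95, and Ces1b and Ces1g at -0.78. These values are descriptions over 6 arrays, and probe sets of the family can share sequence as well as arrays. Ces1e and Ces1f also kept together between the groups (0.99 without taking off the means), whereas Ces1f and Ces1g did not (-0.52).

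**Figure D4:**
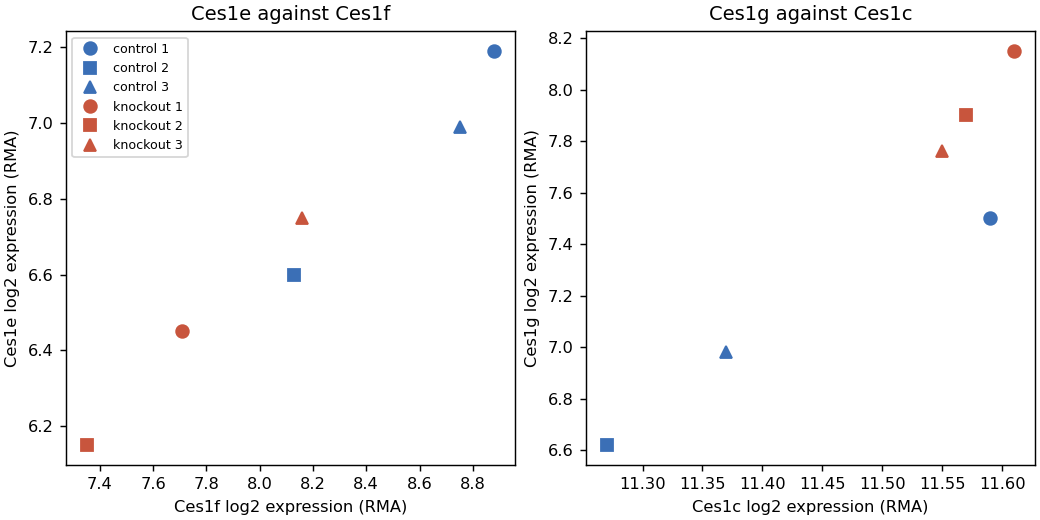
Log2 RMA expression of Ces1e against Ces1f (left) and of Ces1g against Ces1c (right), with 1 point per array, blue for control and red for knockout and the shape for the replicate number. Ces1e and Ces1f run along a line through both groups (correlation 0.99), with the highest values in control replicate 1 and the lowest in knockout replicate 2.

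Of the 11 other names in the carboxylesterase list, 10 had a probe set, and the remaining name, Ces6, is an older name of Ces2a in RefSeq. Ces2g lay at 6.34, 6.42 and 5.83 in the knockouts against 5.44, 5.65 and 5.60 in the controls. All knockout values lay above all controls, with a log2 difference of 0.63 (SE 0.18, limma adjusted p = 0.305). Ces1a differed by -0.71 (limma adjusted p = 0.363) and Ces5a by 0.33 (0.489), but both were dim, at 1.36 to 2.78 and 1.63 to 2.37. Ces2e differed by 0.29, Ces2d-ps, a transcribed pseudogene, by 0.26 and Ces4a by 0.10, with adjusted p-values of 0.655 to 0.906. The dim genes Ces1h, Ces2b, Ces2f and Ces2h differed by 0.13 to 0.18. At an unadjusted p under 0.05 there were thus 2 of these 10, 1 in each direction, against 10.5% of all genes. The Ces2 subfamily, for which Ces2a, Ces2b, Ces2d-ps, Ces2e, Ces2f, Ces2g and Ces2h were measured, held 1 negative difference (Ces2a) and 6 positive ones. Among the positive ones Ces2b, Ces2f and Ces2h were dim, and only Ces2g had an unadjusted p under 0.05 in limma. Over all genes 11133 of 22180 differences were positive.

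The genes whose pattern over the 6 arrays was most like that of Ces1g, the member with the smallest p, were sought among all tested genes outside the family. By Pearson correlation they were Slc25a5, an ADP/ATP carrier of the inner mitochondrial membrane (0.994), Tubb6, a beta-tubulin gene (0.991), Msx3 (0.990), Zswim3 (0.988) and Smlr1 (0.988). Their log2 differences were smaller than that of Ces1g, at 0.09, 0.38, 0.24, 0.21 and 0.16. The search ran over the whole table, so high correlations over 6 arrays are selected, and Msx3 and Zswim3 were dim.

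Carboxylesterase genes are known to be controlled by the nuclear receptors PXR (Nr1i2), CAR (Nr1i3), HNF4A and others, by NRF2 and by clock output factors. Of 20 matched genes in a list of such regulators, 6 had positive and 14 negative differences with a median of -0.10, and 2 higher and 3 lower had an unadjusted p under 0.05, against 10.5% of all genes. The D-box factor gene Dbp lay at 7.51, 7.52 and 7.01 in the knockouts against 6.88, 6.13 and 6.75 in the controls. All knockout values were above all controls, by 0.76 in the mean (SE 0.22, limma adjusted p = 0.321), and control replicate 1 was again the highest control and control replicate 2 the lowest. Over the 6 arrays Dbp correlated at 0.95 with Ces1g, 0.87 with Ces1c, -0.47 with Ces1e and -0.52 with Ces1b, whose windows held TTATGTAA. It correlated at -0.62 with Ces2a and -0.89 with Ces3b, whose windows held no match. For Ces1d, Ces1f and Ces3a, which had no promoter sequence here, the values were 0.65, -0.56 and -0.61. These correlations are descriptions and include the differences between the groups. The genes with TTATGTAA in the promoter window included both signs, and a part of Dbp in the carboxylesterase values was not tested. Nr1i2 differed by -0.42 (adjusted p = 0.348), Hnf4a by -0.36 (0.399) and Ahr by -0.40 (0.450), and Nr1i3 by -0.16 (0.747), in limma.

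The other factors of the D-box, named after their values were seen, were Tef, Hlf and Nfil3. Tef differed by 0.36 (limma adjusted p = 0.417) and Hlf by 0.30 (0.475). Nfil3, a repressor at the same element, lay at 4.01, 4.68 and 4.76 in the knockouts against 5.15, 5.08 and 5.07 in the controls, a difference of -0.62 (adjusted p = 0.346). In all 3 of these genes the groups did not overlap, against 16.7% of all genes and 21.9% of those above the median of gene means. As the 3 genes were picked with their values known, their count cannot be read as a rate beside these shares. None passed the threshold. No source used here gives the time of day of sampling.

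Other enzymes that split lipid esters were read for comparison. Of 15 matched genes of neutral lipid hydrolysis 4 had positive and 11 negative differences (median -0.18), with 1 higher and 3 lower at an unadjusted p under 0.05, against 10.5% of all genes. The lipoprotein lipase gene Lpl was higher by 1.48 (limma adjusted p = 0.0902). Ddhd2, a lipase gene, differed by -0.82 (0.248), the cholesteryl ester hydrolase gene Nceh1 by -0.52 (0.278) and the endothelial lipase gene Lipg by -0.59 (0.446). Aadac, an esterase of the same compartment that takes part in drug and triacylglycerol hydrolysis, differed by -0.10 (95% confidence interval -0.39 to 0.19).

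Of 15 matched genes of very low density lipoprotein assembly 5 had positive and 10 negative differences (median -0.17), with 0 higher and 3 lower at an unadjusted p under 0.05, against 5.06% and 5.46% of all genes. The disulfide isomerase gene Pdia3 differed by -0.39 (limma adjusted p = 0.382), Sar1b, which acts in export of the particles from the endoplasmic reticulum, by -0.38 (0.390), the lipid droplet gene Cidec by -1.22 (0.413) and the apolipoprotein B editing gene Apobec1 by 0.50 (0.546). Apob itself differed by -0.17 (0.660) and Mttp, its lipid transfer partner, by -0.27 (0.563). Of 15 matched genes in a mixed list of other hydrolases, not all of which act on drugs, 7 had positive and 8 negative differences (median -0.05). At an unadjusted p under 0.05 there were 1 higher and 3 lower, against 10.5% of all genes. The soluble epoxide hydrolase gene Ephx2 differed by -0.50 (0.300), the aspartoacylase gene Aspa by -0.45 (0.350), Amdhd1 by 0.46 (0.366) and the carboxymethylenebutenolidase gene Cmbl by -0.36 (0.392). Of the 3 receptors that return proteins to the endoplasmic reticulum, Kdelr3, which was dim, differed by 0.49 (0.342), while Kdelr1 and Kdelr2 differed by 0.02 (0.980) and -0.01 (0.991).

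Markers of other cells and tissues were counted in the same way. The median difference was 0.01 for 11 hepatocyte, 0.25 for 12 neutrophil, 0.10 for 10 lymphocyte, 0.11 for 12 stellate cell and fibroblast, 0.15 for 12 endothelial, 0.10 for 9 cholangiocyte, -0.06 for 12 intestinal, 0.07 for 10 adipose, 0.00 for 9 pancreatic, 0.07 for 11 kidney and 0.19 for 5 red cell markers. At an unadjusted p under 0.05 there were 11 higher and 0 lower of the 12 macrophage markers, against 5.06% higher and 5.46% lower of all genes. Of the 12 neutrophil markers, all dim, 4 were higher and 0 lower. Of the 11 hepatocyte markers 1 was higher (Fgb) and 2 lower (Tat and Hnf4a). The remaining lists held at most 2 higher and 1 lower each. Among the macrophage markers Cd68 lay at 6.46, 7.14 and 6.22 in the knockout arrays against 5.26 to 5.82 in the controls. Knockout replicate 2, the lowest knockout array for Ces1e, Ces1f, Ces2a and Ces3a, had the highest summed linear signal of several lists. It was 2078 for macrophage markers against 1136 and 852 in knockout replicates 1 and 3, 1513 for stellate cell and fibroblast markers against 760 and 800, and 1797 for endothelial markers against 1105 and 1138. The controls lay at 686 to 865 for the stellate cell and at 1064 to 1091 for the endothelial list. The hepatocyte list was also highest in knockout replicate 2, at 49450 against 48229 and 48792 in knockout replicates 1 and 3. The controls lay at 47651 to 49406 for that list. Ces3b, with the largest negative difference, was lowest in knockout replicate 1 (6.49). The part of these lists in the carboxylesterase values was not tested.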

How the data were processed

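The submitters' processing notes name RMA and Affymetrix Expression Console 1.4.1, and the deposited values are log2 expression made by the authors for 41345 probe sets on 6 arrays, from 100 ng of total RNA per the labels' protocols. The labels name no genome build for the array; promoter sequences are those of RefSeq on GRCm38.p6. Probe sets were named with the array annotation: 23521 had 1 gene symbol, 1814 had several and 16010 are unnamed here. Symbols were checked against RefSeq (23328 gene numbers found, 0 symbols updated). The probe set with the highest mean was kept per gene. Knockout and control were compared over 22180 genes in limma 3.58.1 (lmFit, then eBayes; R 4.3.3), without covariates or filter, with 2-sided p-values adjusted by Benjamini-Hochberg over all genes and a threshold of 0.05. The test was tried on simulated data. No pair of arrays was identical (0 pairs). The number of arrays limits the precision. A gene was called dim when its mean over the arrays was below the median of such means, 3.55. The members and lists were chosen with earlier results of these data known. Named are all members, the other carboxylesterase genes, the 4 genes of smallest p in each pathway list, the 5 genes most correlated with the member of smallest p, and Prkg1; Gusb, Aadac, Apob, Mttp, Nr1i3 and the marker genes named were picked from the lists after their values were seen. Alternatives were a filter on dim probe sets, median centring, quantile normalization, other variance models, other probe set rules, array weights, a replicate block and leaving out each array.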

Additional observations from a re-analysis of the deposited data

How the results depend on the processing

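Of 15 alternatives, each of Ces1c, Ces1e, Ces1f, Ces1g, Ces2a, Ces3a and Ces3b kept its direction in all 15. With an array left out, the difference was 0.70 to 1.14 for Ces1g, -1.67 to -1.01 for Ces3b and -1.08 to -0.65 for Ces1f, each at an unadjusted p under 0.05 in all 15. Ces1b turned to 0.07 with quantile normalization and ranged from -0.11 to 0.06 with an array left out (0.05 without knockout replicate 2 or control replicate 2, 0.02 without control replicate 3), and Ces1d ranged from -0.18 to 0.33. The count of genes past an adjusted p of 0.05 was 16 with the filter on dim probe sets, 25 with an intensity trend and 0 to 66 with an array left out (66 without knockout replicate 3 and 3 without control replicate 3). At an unadjusted p under 0.05 there were 2334 genes with all arrays and 1543 to 2734 with an array left out, the lowest without control replicate 2. For the members, the count lower at an unadjusted p under 0.05 ranged from 2 to 5 with an array left out. It was 5 without knockout replicate 3, where 2697 of all 22180 genes were under that p in either direction. The count of members without overlap ranged from 2 to 6, with 6 without knockout replicate 3 and 4 without control replicate 2. Fewer arrays make overlap rarer, and the share over all genes was not counted with an array left out. These counts therefore cannot be read as a result about the members. The count of members past an adjusted p of 0.05 ranged from 0 to 1 (Ces3b without knockout replicate 3, -1.67). The cause was not tested. With the replicate number as a block, 1 gene passed an adjusted p of 0.05 and no member did. The block moved the SE from 0.25 to 0.16 for Ces1f, from 0.22 to 0.17 for Ces1g and from 0.20 to 0.15 for Ces1e. For Ces1c it went from 0.13 to 0.14. Over all genes, same-numbered arrays deviated together at 0.006, 0.053 and 0.015. With 3 arrays per group, this does not settle whether the numbers pair the samples.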
